A study of Mus musculus with 3 samples.

Results

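Inflammation-induced miRNAs were followed in visceral white fat of mice on a diet with added EPA (eicosapentaenoic acid, an omega-3 fat found in fish oil). miRNAs are short RNAs that pair with messenger RNAs and lower their output. The 6 members, chosen by name as miRNAs that NF-kB, AP-1 or STAT signalling induces, are miR-155-5p, miR-146a-5p, miR-146b-5p, miR-21a-5p, miR-21a-3p and miR-147-3p. All 6 had a row among the 1251 mature miRNAs of the deposited table. The tissue was epididymal fat of 3 C57BL/6J mice, numbered 1, 3 and 9 and labelled VIS-EPA. The mice had eaten a diet with 45% of its energy from fat, 20% from protein and 35% from carbohydrate, holding 6.75% EPA, for 11 weeks, starting when they were 5 to 6 weeks old, and were fasted for 4 h. This was the single group analysed here, without a control diet, and the values below cannot show what EPA changed. Little beyond the sample titles says that the samples are separate animals, so the p-values measure the spread between samples, which may be technical.

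NF-kB, AP-1 and STAT factors switch on genes after Toll-like receptors or cytokine receptors fire, and a few miRNA genes are among them. miR-146a and miR-146b act as brakes, since they repress the adaptor and kinase that carry the Toll-like receptor signal to NF-kB. miR-155 mostly acts the other way, by repressing inhibitors of cytokine signalling, and is made chiefly by activated macrophages and lymphocytes. miR-21 is induced by STAT and AP-1 factors and is also abundant in many resting cell types. miR-147 is known from mouse macrophages, where Toll-like receptor signals induce it and it dampens cytokine output. Omega-3 fatty acids are known to dampen these pathways, and fat holds macrophages and lymphocytes beside its adipocytes and vessels.

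The mature sequences show which members can share targets, since the seed (bases 2 to 8, in capitals) selects most of them. They come from RefSeq on GRCm38.p6, the assembly of mm10, are written 5′ to 3′, and were found for 5 of the 6 members, miR-147-3p being the other.
miR-21a-5p: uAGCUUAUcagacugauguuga
miR-21a-3p: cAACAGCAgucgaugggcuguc
miR-146a-5p: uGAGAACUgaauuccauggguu
miR-146b-5p: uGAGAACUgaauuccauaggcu
miR-155-5p: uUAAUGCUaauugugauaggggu

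Among these 5, the miR-146 pair shared 1 seed and each of the others had its own. Counted from 1 at the 5′ end of miR-146a-5p, the pair differs by G18A and U21C (the base of miR-146a-5p first), so 20 of 22 bases are identical, among them the first 17. Reads that end before position 18 cannot be told apart between the pair, and the authors' way of assigning such reads is not stated in the labels used here. The RefSeq table holds 1 further miRNA with a member's seed, miR-21c, which shares it with miR-21a-5p and was listed at 0 in mice 1, 3 and 9. Its sequence is shown because its first bases are those of miR-21a-5p.
miR-21c: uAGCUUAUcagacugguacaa

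On GRCm38 the miR-21a hairpin lies on chromosome 11 from 86584067 to 86584158 on the minus strand and overlaps an exon of Vmp1, a gene of autophagy. The miR-146a hairpin lies on the same chromosome from 43374397 to 43374461, also on the minus strand, and overlaps no gene but its own in the GENCODE annotation. The miR-146b hairpin lies on chromosome 19 from 46342762 to 46342870 on the plus strand, in an intron of Mfsd13a. The miR-155 hairpin, on chromosome 16 from 84714140 to 84714204 on the plus strand, overlaps an exon of its host transcript Mir155hg. The miR-147 hairpin, on chromosome 2 from 122640803 to 122640881 on the plus strand, overlaps an exon of the protein-coding gene AA467197. The 6 members therefore come from 5 separate hairpins, and the strands of miR-21a share 1 precursor.

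Values are normalized counts, or their log2 after adding 10 as deposited, where 3.32 is the floor of the scale. The raw counts behind them are unknown, because the columns were normalized before deposit and hold nearly one common set of values. Of the 12 values that the detected members had, 9 also occurred in another mouse's column within 1e-06, and differences between mice are therefore close to differences of rank. miR-143-3p, miR-26a-5p and miR-378a-3p, which are abundant in fat, averaged 17.10, 17.95 and 16.07 log2 units. miR-143-3p also marks smooth muscle and stroma, so these levels do not establish the tissue. Some markers of other tissues were present too. The muscle miRNA miR-133a-3p stood at 11.94, 16.38 and 16.02 log2 units in mice 1, 3 and 9. Another muscle marker, miR-1a-3p, was low, with 3.32, 5.53 and 3.44, so the muscle markers did not agree in level. The erythroid miR-451a averaged 12.33. The epithelial miR-200b-3p stood at 8.40, 7.73 and 4.19 in mice 1, 3 and 9, and the epithelial miR-200c-3p at 4.66, 5.60 and 3.32. The hepatocyte miRNA miR-122-5p was listed at 0 in the 3 mice. The part of such cells in the members' values was not tested.

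The miR-21 and miR-146 members were detected in the fat, and miR-155-5p and miR-147-3p were listed at 0. Above the floor in all 3 mice were 4 of the 6 members, miR-21a-5p, miR-146b-5p, miR-146a-5p and miR-21a-3p, where 22.9% of all listed miRNAs stood above it in every mouse. The other 2 were at the floor in all 3 mice, as were 71.0% of all listed miRNAs. The median level of the 6 members was 7.94 log2 units, and that of all 1251 miRNAs was the floor, 3.32, since most of them lie on it. Among the 287 miRNAs above the floor in every mouse the median was 8.02, and that of the 4 detected members was 9.92. By mean level, miR-21a-5p, miR-146b-5p, miR-146a-5p and miR-21a-3p stood above 88.9%, 72.5%, 61.3% and 33.8% of those 287. Together the members took 0.649% ± 0.0509 of the summed normalized value (SD, n = 3). In each mouse most of that was miR-21a-5p, which made up 84.4%, 87.1% and 84.3% of the members' sum in mice 1, 3 and 9.

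**Figure D1:**
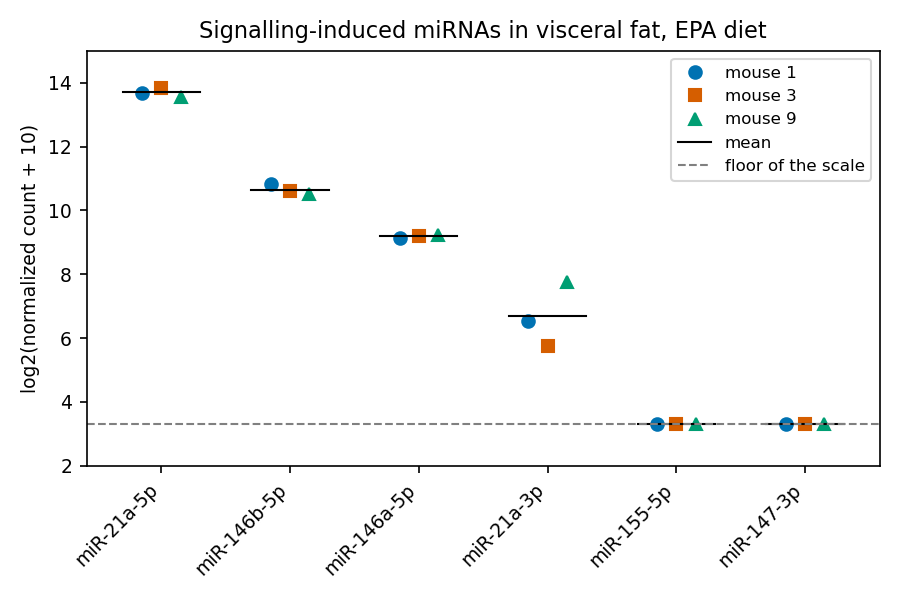
Level of each member in mice 1, 3 and 9 (symbols), as log2 of the normalized count plus 10 on the vertical axis, with the mean of the 3 mice as a black line and the floor of the scale as a dashed line. miR-21a-5p, miR-146b-5p and miR-146a-5p sit in tight groups well above the floor, miR-21a-3p is spread out, and miR-155-5p and miR-147-3p lie on the floor.

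miR-21a-5p, the working strand of the miR-21 hairpin, was the highest member. It stood at 13187 normalized counts in mouse 1, 14640 in mouse 3 and 12103 in mouse 9. The mice lay close together, the highest being 1.21 times the lowest. On the log2 scale it averaged 13.70 ± 0.14 (SD, n = 3), rank 32 of the 1251 miRNAs by mean level.

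miR-146b-5p was next, with 1803 normalized counts in mouse 1, 1550 in mouse 3 and 1464 in mouse 9. Mouse 1 was highest and the range was 1.23-fold. It averaged 10.65 ± 0.15 log2 units, rank 79.

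miR-146a-5p, the better known brake on Toll-like receptor signalling, had 557 normalized counts in mouse 1, 581 in mouse 3 and 592 in mouse 9. Its range was 1.06-fold, the narrowest of the detected members. It averaged 9.20 ± 0.04 log2 units, rank 111. Its rank in the single mice was 112, 110 and 109.

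Of the 2 paralogs, miR-146b-5p was the higher in every mouse. It exceeded miR-146a-5p by 1.68 log2 units in mouse 1, 1.40 in mouse 3 and 1.29 in mouse 9, a mean of 1.46 ± 0.20 (SD, n = 3). It made up 76.4%, 72.7% and 71.2% of the pair's sum in mice 1, 3 and 9, or 73.4% ± 2.67. In the deposited values miR-146b-5p was highest in mouse 1 and lowest in mouse 9, and miR-146a-5p was lowest in mouse 1 and highest in mouse 9. This opposite order depends on the scaling, because the range of miR-146a-5p was only 1.06-fold. Under median-ratio scaling, with factors of 1.02, 0.957 and 1.04 in mice 1, 3 and 9, miR-146a-5p was highest in mouse 3. Differences in how well each sequence is captured in a library enter every such comparison between miRNAs, and their part was not tested.

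miR-21a-3p, the other strand of the miR-21 hairpin, had 83.1 normalized counts in mouse 1, 43.4 in mouse 3 and 206 in mouse 9. Mouse 9 stood apart from the others, and the highest value was 4.74 times the lowest. It averaged 6.68 ± 1.01 log2 units, rank 190, and its ranks in mice 1, 3 and 9 were 197, 224 and 156.

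miR-155-5p was listed at 0 in mice 1, 3 and 9, and so was its partner strand miR-155-3p. miR-147-3p and miR-147-5p were likewise listed at 0 in the 3 mice. The lowest value above the floor of any miRNA was 3.40 normalized counts in mouse 1, 2.67 in mouse 3 and 0.661 in mouse 9. These values are not detection limits, because the columns were normalized before deposit. Both members may still be present in the tissue, and why they were listed at 0 was not tested. In whole tissue, fewer cells of a type and less RNA per cell cannot be told apart.

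The order of the 4 detected members was the same in every mouse, miR-21a-5p above miR-146b-5p above miR-146a-5p above miR-21a-3p. The first step was 3.04 ± 0.18 log2 units and the second the 1.46 ± 0.20 given above. The last, from miR-146a-5p to miR-21a-3p, was 2.52 ± 0.997, with 2.61, 3.47 and 1.48 in mice 1, 3 and 9. Each step exceeded its SD between mice; the steps are a description without a test.

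The 4 detected members differed in how steady they were. Among the 194 miRNAs that averaged 100 or more normalized counts, the median SD was 0.22 log2 units. miR-146a-5p, with 0.04, had 189 of them above it in SD, miR-21a-5p had 143 and miR-146b-5p had 133. miR-21a-3p lay at the other end, with 10 above it. It averaged 111 normalized counts and passed the minimum of 100 only through mouse 9 (206), the value that also widens its SD. These SDs rest on few mice: without mouse 1 that of miR-146b-5p was 0.058 and that of miR-146a-5p 0.020, without mouse 3 that of miR-21a-5p was 0.087, and without mouse 9 that of miR-21a-3p was 0.57. Median-ratio scaling took that of miR-146a-5p to 0.076. Among the 70 miRNAs seen in all mice within 1 log2 unit of its mean level the median SD was 0.35 and 7 had a larger SD than miR-21a-3p.

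**Figure D2:**
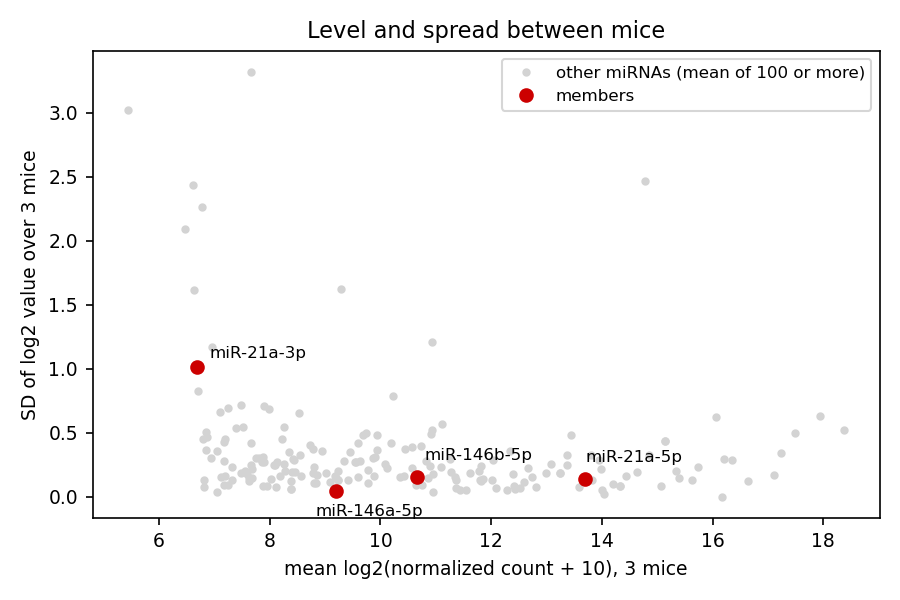
SD over the 3 mice (vertical axis, log2 units) against mean level (horizontal axis, log2 of the normalized count plus 10) for the 194 miRNAs averaging 100 or more, with the 4 detected members in red. miR-146a-5p lies near the bottom with an SD of 0.04, miR-21a-5p and miR-146b-5p are below the median of 0.22, and miR-21a-3p stands high with 1.01.

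The miR-21a hairpin leaned strongly to its 5p strand. The log2 ratio of miR-21a-5p to miR-21a-3p was 7.15 in mouse 1, 8.10 in mouse 3 and 5.81 in mouse 9. It averaged 7.02 (moderated SE 0.48, n = 3), with 5p higher in 3 of 3 mice and an adjusted p of 0.000123 (limma, two-sided test of the ratio against 0, Benjamini-Hochberg adjustment over 129 hairpins). The moderated SE borrows from the spread of all hairpins tested and is smaller than the 3 ratios alone would give, their SD being 1.15. In that test 51.2% of hairpins had the 5p strand higher and 45.7% the 3p strand higher, so passing it is common. Among the 62 hairpins with both strands seen in every mouse, the median size of the ratio was 4.19 and 13 had a larger one than miR-21a. In 47 of the 129 hairpins 1 strand was at the floor throughout, so their ratios are set by the added constant of 10.

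The strand ratio of miR-21a was more variable than most. Its SD between mice was 1.15 log2 units, against a median of 0.34 over the 129 hairpins, of which 9 had a larger SD. Among the 62 with both strands seen throughout, the median SD was 0.35 and 1 exceeded miR-21a. The 3p strand made up 0.626%, 0.296% and 1.67% of the hairpin's sum in mice 1, 3 and 9. The strands ran in opposite order: mouse 9 had the lowest 5p and the highest 3p value, and mouse 3 the highest 5p and the lowest 3p value. Mouse 9 had 336 miRNAs above the floor, against 316 in mouse 1 and 317 in mouse 3. The lower strands of the other 61 such hairpins were highest in mouse 9 in 21 cases, in mouse 1 in 20 and in mouse 3 in 17, with 3 ties. Their median excess in mouse 9 over the mean of mice 1 and 3 was 0.09 log2 units, where miR-21a-3p had 1.61 and 1 other lower strand had more. Mouse 9 was picked for this contrast because miR-21a-3p was highest there, which favours a large value for it. By the SD between mice, for which no mouse is picked, miR-338-5p (1.40), miR-193a-5p (1.23) and miR-674-5p (1.09) exceeded miR-21a-3p (1.01).

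**Figure D3:**
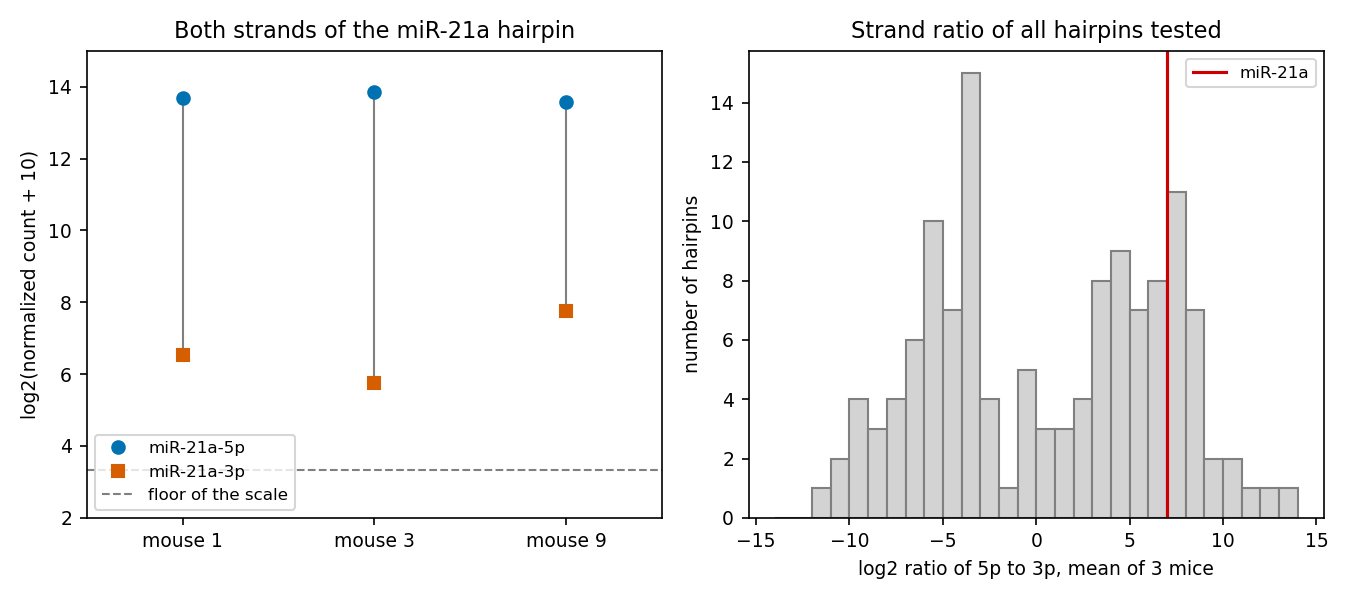
Left, levels of miR-21a-5p and miR-21a-3p in mice 1, 3 and 9, as log2 of the normalized count plus 10, with the floor as a dashed line and a grey line joining both strands of a mouse. Right, number of hairpins by mean log2 ratio of 5p to 3p over 3 mice for the 129 hairpins tested, with miR-21a at 7.02 in red, among the 5p-leaning hairpins. For 47 hairpins the ratio is set by the added constant.

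Of the miR-146 hairpins, the 5p strand alone stood above the floor. miR-146a-3p and miR-146b-3p were listed at 0 in the 3 mice, so neither a fold nor a test is given for these hairpins. The miR-155 and miR-147 hairpins had neither strand above the floor and were not tested.

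miRNAs that mark blood cells were present in the same samples, at levels from above those of the miR-146 pair down to the floor. Of 7 such miRNAs, 5 stood above the floor in all mice, 1 in some and 1 in none. Of all listed miRNAs, 22.9% stood above it in every mouse. The median level over the 7 was 9.45 log2 units. The lymphocyte miRNA miR-150-5p averaged 12.81 ± 0.08, miR-342-3p 10.58 ± 0.22, the pan-leukocyte miR-142-5p 9.86 ± 0.30 and the myeloid miR-223-3p 9.45 ± 0.34 (SD, n = 3). miR-511-3p, encoded in a macrophage receptor gene, averaged 6.15 ± 0.45. Thus miR-150-5p lay above both miR-146 members in every mouse and miR-511-3p below both. The summed share of the list was 0.430%, 0.412% and 0.458% in mice 1, 3 and 9. So markers of leukocytes were detected where miR-155-5p was not. Of the list, miR-223-5p and miR-142-3p were at or near 0, with miR-223-5p at the floor in the 3 mice, and miR-142-3p at 9.83, 0 and 4.18 normalized counts in mice 1, 3 and 9.

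Set beside these markers, miR-21a-5p was above each of the 5 detected ones in all 3 mice, exceeding miR-150-5p, the nearest, by 0.88 ± 0.22 log2 units. miR-146b-5p could not be separated from miR-342-3p, with a mean difference of 0.07 ± 0.32 and miR-146b-5p higher in 2 of 3 mice. miR-146a-5p could not be separated from miR-223-3p, with a difference of -0.26 ± 0.37 and miR-146a-5p higher in 1 of 3 mice. The myeloid marker itself ranged from 531 to 858 normalized counts, where miR-146a-5p ranged from 557 to 592. How much of each member comes from leukocytes was not tested.

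**Figure D4:**
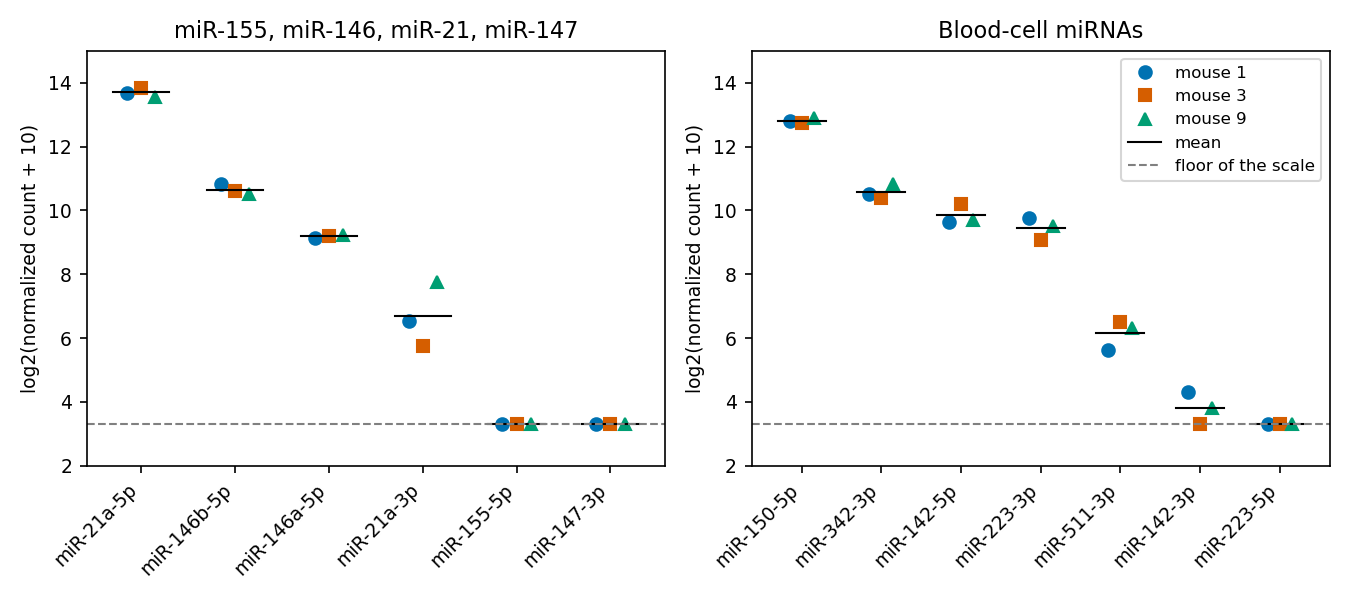
Levels in mice 1, 3 and 9 (symbols), as log2 of the normalized count plus 10, of the 6 members (left) and of 7 blood-cell miRNAs (right), each with its mean as a black line and the floor as a dashed line. miR-146b-5p and miR-342-3p sit at about one level, as do miR-146a-5p and miR-223-3p, while miR-155-5p is on the floor.

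Other miRNAs reported to rise with Toll-like receptor, NF-kB, AP-1 or STAT signalling were nearly all detected. Of 10 in the list, 9 stood above the floor in all mice and 1 in some, with a median of 8.35 log2 units. Of all listed miRNAs, 22.9% stood above the floor in every mouse, and the list was chosen with earlier results of these data known. Some of the 9 came near the floor: miR-9-5p had 2.67 normalized counts in mouse 3 and miR-212-3p had 9.83 in mouse 1. The highest were miR-125a-5p at 15.38 ± 0.15, miR-181b-5p at 11.81 ± 0.12, miR-221-3p at 11.62 ± 0.18 and miR-222-3p at 10.94 ± 0.18 (SD, n = 3). Many cell types make these without inflammation, so the list's level is not a measure of signalling.

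miRNAs reported to repress parts of the NF-kB pathway were present throughout. The 6 stood above the floor in every mouse, as did 22.9% of all listed miRNAs, and their median level was 12.24 log2 units. miR-16-5p, a repressor of an IkB kinase subunit and of many cell-cycle genes, averaged 14.32 ± 0.08. The stromal miR-199a-3p averaged 13.25 ± 0.19, the endothelial miR-126-5p 12.67 ± 0.22 and miR-181b-5p, which is also in the list above, 11.81 ± 0.12 (SD, n = 3). miR-146b-5p was below these 4 in every mouse and above the other members of the list, miR-15a-5p (10.35 ± 0.16) and miR-223-3p. miR-21a-5p was below miR-16-5p and above the rest in every mouse.

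The miRNAs whose levels lay closest to each member's, by the largest log2 difference over the 3 mice, were found for the 4 detected members. They were miR-125b-5p (0.15) and miR-151-3p (0.27) for miR-21a-5p, and miR-423-5p (0.26) and miR-320-3p (0.26) for miR-146b-5p. For miR-146a-5p they were miR-29c-3p (0.12) and miR-28a-5p (0.16). For miR-21a-3p they were miR-214-5p (0.75) and miR-5109 (0.78), so no other miRNA came as near to it as to the steadier members. miR-214-5p had 6.72, 6.49 and 7.38 log2 units in mice 1, 3 and 9, and like miR-21a-3p was lowest in mouse 3 and highest in mouse 9. It was picked for its closeness in these same mice, which favours a shared order.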

How the data were processed

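Total RNA from frozen epididymal fat was made into small RNA libraries by an Illumina protocol, per the labels' protocols. The deposited values are log2 values, 1 per mature miRNA and mouse. Per the series' design text, the authors used the Gunaratne pipeline, aligned about 13.8 M reads of each sample to mm10, scaled counts by total usable reads and then added 40. The values hold a constant of 10 instead (lowest value 3.32, and 260 values between 10 and 40), and the sorted columns are equal within 1e-06 at 121 of 336 ranks above the floor. Because the raw counts behind the normalized values are unknown, counting intervals were not computed. No source used here states the aligner or the annotation.

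Linear values are the power of 2 minus 10. Levels, shares, order and spread are means and SDs over 3 mice, with no test. Strand ratios of hairpins with both strands listed (425, of which 129 had a larger strand averaging 100 or more) were tested with limma 3.58.1 in R 4.3.3 at an adjusted p of 0.05. Tried on simulated data of 129 hairpins, it found 64 of the 64 that were changed and called 2 others. The simulation gave all hairpins equal noise, changes of equal size and no strand at the floor. It therefore does not show how the test does on a hairpin as variable as miR-21a. Python 3.11.15, numpy 2.4.6, pandas 2.3.3 and matplotlib 3.10.9 did the rest (random seed 11). The members and lists were chosen with earlier results of these data known. The miRNAs named are the members, their partner strands, those sharing a seed, the 2 closest in level, and up to 4 highest of each list, with tissue and blood-cell markers. A few more were picked once their values were known. Alternatives were pseudocounts of 1 and 40, other filters, median-ratio scaling, other limma priors and leaving out each mouse.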

Additional observations from a re-analysis of the deposited data

How the results depend on the processing

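The order of the 4 detected members held under pseudocounts of 1 and 40, median-ratio scaling and without each mouse in turn. Of the 151 alternatives run, 143 left the result within a set limit and 8 moved it beyond. Only steps between members and strand ratios could change direction, and only strand ratios had a call to lose. None of those did so. With the larger strand at a mean of at least 1000, 39 hairpins had 5p higher and 28 had 3p higher, against 66 and 59, as fewer were tested (67 against 129). Without 1 mouse these counts were 63 to 66 and 53 to 56, and the miR-21a ratio was 6.48 to 7.62 log2 units (adjusted p 0.000257 to 0.0075 by limma), the lowest without mouse 3. The SD of miR-21a-3p was 0.57 without mouse 9, against 1.01. Requiring 100 normalized counts in every mouse leaves 3 of 4 members, without miR-21a-3p. The members' median level was 7.66 to 8.17 and their share 0.623% to 0.674% without 1 mouse. No paired analysis between groups was possible because 1 group was analysed. Strand ratios and steps between members are themselves differences within a mouse.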

Other observations

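miR-31-5p, a member of the list of other signalling-induced miRNAs and named after its values were seen, stood at 5.78 log2 units in mouse 1, 8.50 in mouse 3 and 5.64 in mouse 9, an SD of 1.61. Mouse 3, which was highest for it, was the lowest for miR-21a-3p. The strands of the pan-leukocyte miR-142 hairpin stood far apart: miR-142-5p had 794, 1171 and 830 normalized counts in mice 1, 3 and 9, and miR-142-3p had 9.83, 0 and 4.18, all below the added constant of 10, so no ratio is given.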
